A study of Mus musculus with 4 samples.

Results

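The cytosolic ribosomal protein genes were taken as the rows of the count table whose gene symbol is Rpl, Rps or Rplp followed by a number, with or without the endings a, x or l and a further digit. The kinases of the Rps6k family and rows named as pseudogenes (-ps) do not match. The rule found 87 of 38355 rows, 51 named Rpl or Rplp for the large ribosomal subunit and 36 named Rps for the small one. By the GENCODE vM21 annotation 82 of them are protein coding and 5 are pseudogenes without -ps in their name (Rps12l1, Rps12l2, Rps3a2, Rps3a3 and Rps4l). Rpsa, Fau and Gnb2l1 are examples of ribosomal protein genes outside the name pattern.

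The samples were 4 total RNA libraries, 1 per untreated mouse, of the free wall of the left ventricle. The stated purpose was to find out whether VSFP2.3, a fluorescent protein that reports membrane potential, is toxic to the heart. WT 1 was a wild-type male of 35 weeks and WT 2 a wild-type female of 19 weeks. TG 1 was a VSFP2.3 transgenic male of 35 weeks and TG 2 a VSFP2.3 transgenic female of 19 weeks. All 4 mice had the same parents, sex and age cannot be told apart, and the series title describes the indicator as targeted to cardiomyocytes. The sources used here give neither the promoter of the transgene nor the strain. A male or female pair below is the TG and the WT mouse of that sex and age.

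Each ribosome joins a small subunit, which reads the mRNA, to a large subunit, which forms the peptide bonds, and each subunit is built from ribosomal RNA and many small proteins. Ribosomal protein mRNAs typically begin with a run of pyrimidines, the 5′ terminal oligopyrimidine tract, through which their translation follows mTOR signalling. Mammalian genomes hold many processed copies of these genes, and a few members have a tissue-restricted paralogue, of which Rpl3l, found in heart and skeletal muscle in place of Rpl3, is the best known.

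Sequence similarity sets how a short read can be assigned, so the stretches that separate the most similar rows are shown first. The coding sequence of Rpl3 was identical to the processed pseudogene Rpl3-ps1 at 1207 of 1209 aligned bases (99.8%) and to Rpl3l at 894 of 1206 (74.1%). Coding bases 58 to 117 are printed below, with capitals at the 17 positions where Rpl3l differs from the others. Rpl3 and its pseudogene read alike throughout this stretch.
Rpl3: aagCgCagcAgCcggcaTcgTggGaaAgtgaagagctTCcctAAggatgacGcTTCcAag
Rpl3-ps1: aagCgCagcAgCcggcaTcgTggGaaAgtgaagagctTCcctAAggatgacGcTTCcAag
Rpl3l: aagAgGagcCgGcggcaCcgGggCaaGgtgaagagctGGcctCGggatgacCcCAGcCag

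Rps3a1, the gene for a small-subunit protein, and Rps3a3, its processed copy, were identical at 783 of 792 aligned coding bases (98.9%). Coding bases 202 to 261 hold 2 of the differences, in capitals, and these rows are shown because their counts parted in 1 library.
Rps3a1: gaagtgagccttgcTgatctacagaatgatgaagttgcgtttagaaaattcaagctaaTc
Rps3a3: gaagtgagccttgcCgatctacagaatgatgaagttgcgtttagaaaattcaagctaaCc

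The start-site pyrimidine run was looked for in the RefSeq promoter windows (GRCm38.p6), which matched 62 of the 87 members. A run of at least 8 consecutive C or T on the coding strand, reaching into the 10 bases either side of the start, was found in 29 of the 62 (46.8%), against 4259 of 27025 genes with a promoter window (15.8%). Counted over windows, 30 of 74 (40.5%) held one, against 13.7% of all windows. Shown are Rpl14, Rplp2, Rplp0 and Rps21, members lower in TG 1 with WT 2 than in TG 2 with WT 1 at an unadjusted p under 0.05, and Rpl3l, the member higher at such a p. None of them passed the test after adjustment. The 40 bases run from 30 before the start to the 10 from it on, with the longest pyrimidine run near the start in capitals. The run was 14 bases long in Rpl14 (chr9:120571487-120571526, plus strand), 10 in Rplp2 (chr7:141447621-141447660, plus strand), 5 in Rplp0 (chr5:115559437-115559476, plus strand), 7 in Rps21 (chr2:180257349-180257388, plus strand) and 5 in Rpl3l (chr17:24727796-24727835, plus strand), where it extends past the window. Rpl13a and Rpl39, not shown but also lower at such a p, had runs of 14 and 8 bases. Among the members with the lower values there were thus long and short runs.
Rpl14: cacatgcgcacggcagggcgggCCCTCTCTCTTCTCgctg
Rplp2: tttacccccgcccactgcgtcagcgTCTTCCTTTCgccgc
Rplp0: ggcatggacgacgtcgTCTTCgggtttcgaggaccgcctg
Rps21: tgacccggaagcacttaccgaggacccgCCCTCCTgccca
Rpl3l: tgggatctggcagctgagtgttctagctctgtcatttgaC

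Library totals were 14158440 to 16762713 counts. Protein-coding genes took 89.9% of counts in WT 2 and 96.7 to 97.4% in the other 3. Markers of heart muscle were high in every library (8 cardiomyocyte genes summed to 62459 to 80482 CPM, counts scaled to a common library size), and skeletal muscle markers summed to 0.996 to 1.86 CPM. Immune markers split the libraries across genotype: 7 macrophage genes summed to 778 CPM in WT 1 and 591 in TG 2, against 254 in WT 2 and 252 in TG 1, and 7 lymphocyte genes to 21.8 and 23.5 against 1.86 and 1.14. Atrial genes (4) summed to 3708 CPM in WT 1 and 4229 in TG 2, against 1222 in WT 2 and 1557 in TG 1. Myl4, 1 of them, had 1182 counts in WT 2 and 10 to 19 elsewhere. Unlike the sum, the median log2 CPM of the 4 set WT 2 apart, at 6.20 against -1.59 to -0.42 elsewhere. With a median that low, the atrial sum outside WT 2 rested almost wholly on 1 gene and does not describe the 4 as a set. Erythroid genes (5) were at 717 CPM in WT 1 and 142 to 235 in the rest. In tissue RNA, fewer cells of a type and less RNA per cell cannot be told apart.

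The members together held 46150 counts in WT 1, 39474 in WT 2, 32972 in TG 1 and 40668 in TG 2. As a share of all counts this was 0.298% in WT 1, 0.235% in WT 2, 0.222% in TG 1 and 0.287% in TG 2. The genotypes overlapped, at 0.267 ± 0.044% in WT and 0.255 ± 0.046% in TG (SD, n = 2), and an exact two-sided permutation test over the libraries gave p = 0.667, where the smallest p that 2 against 2 can give is 0.333. WT 1 and TG 2 were the 2 highest and WT 2 and TG 1 the 2 lowest, the same split as the immune markers. The atrial sum split in that way too, but the atrial median set WT 2 apart. The part of the immune, atrial and erythroid genes in this was not tested. The order was kept when only protein-coding counts were the denominator (0.308% in WT 1, 0.262% in WT 2, 0.228% in TG 1, 0.297% in TG 2), except that WT 2 then lay further above TG 1. Shares of raw counts also carry the composition of a library, and the TMM scaling factors split alike, at 1.06 in WT 1 and TG 2, 0.934 in WT 2 and 0.947 in TG 1. After that scaling the members summed to 2806 CPM in WT 1, 2525 in WT 2, 2345 in TG 1 and 2701 in TG 2. The order was the same, with the 2 highest nearer to the 2 lowest.

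Few members carried most of these counts. The 5 with the most counts, among them Rpl4, Rps3, Rpl8 and Rpl3l, held 41.8% of the total and the 10 with the most held 60.7%. Per kilobase of exon the 4 highest were Rplp1, a protein of the stalk that recruits elongation factors, at 186 CPM per kilobase (mean of the 4 libraries), Rpl8 at 162, Rpl4 at 134 and Rps15 at 133. Rpl3l was at 106. The levels of the other members spread down to 0.052 CPM per kilobase for Rps13 among protein-coding members with any count.

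That spread went with how much of a transcript is found elsewhere among annotated genes. Each member's mature transcript was cut into all windows of 50 bases, and a median of 56.1% of them also occurred in the transcripts of another gene. Across the 82 protein-coding members, the Spearman correlation between this percentage and the log2 level per kilobase was -0.52, a description over genes that share libraries and, often, sequence families. The 13 members with under 25% shared had a median of 28.7 CPM per kilobase. The 21 members with 25 to 50% shared had a median of 13.0, the 26 with 50 to 75% had 1.76, and the 22 with 75% or more had 0.723. The highest single level in the last group was 12.5 CPM per kilobase, that of Rpl13, a large-subunit protein. As background, read counters of the kind named in the processing notes usually leave out reads that align equally well to several places. The sources used here do not give the setting or the read length, and the part of such reads in these levels was not tested.

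**Figure D1:**
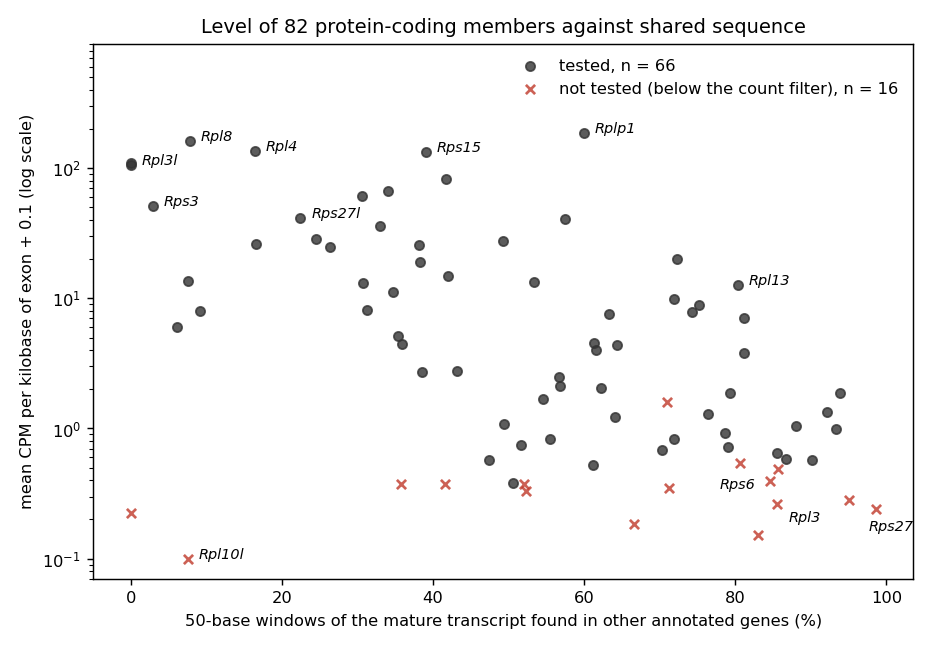
Mean level of each of the 82 protein-coding members (CPM per kilobase of exon plus 0.1, log axis) against the percentage of 50-base windows of its mature transcript that occur in other annotated genes; black circles are the 66 tested members and red crosses the 16 below the count filter. Rpl3l, Rps3 and Rpl8 stand at the upper left, and Rpl3, Rps6 and Rps27 at the lower right.

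Rows annotated as processed copies often held more reads than the gene. Of 56 protein-coding members with such a copy sharing at least 20% of their 50-base windows, 25 had fewer counts than the copy. Where several copies qualified, the one with the most counts was taken, a choice that favours the copy. Rps13, of the small subunit, had 6 counts in WT 1, 2 in WT 2, 0 in TG 1 and 1 in TG 2, while Rps13-ps2, which shares 74.8% of its windows, had 378, 300, 254 and 310 in that order. Rps28 had 4, 9, 5 and 6 counts against 750, 560, 457 and 565 for the copy Gm10263. Rpl10a, of the large subunit, had 36, 53, 19 and 34 counts against 591, 411, 354 and 469 for Rpl10a-ps1. In each of these 3 sets every library had more counts in the copy, so the level of the gene itself is uncertain.

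**Figure D2:**
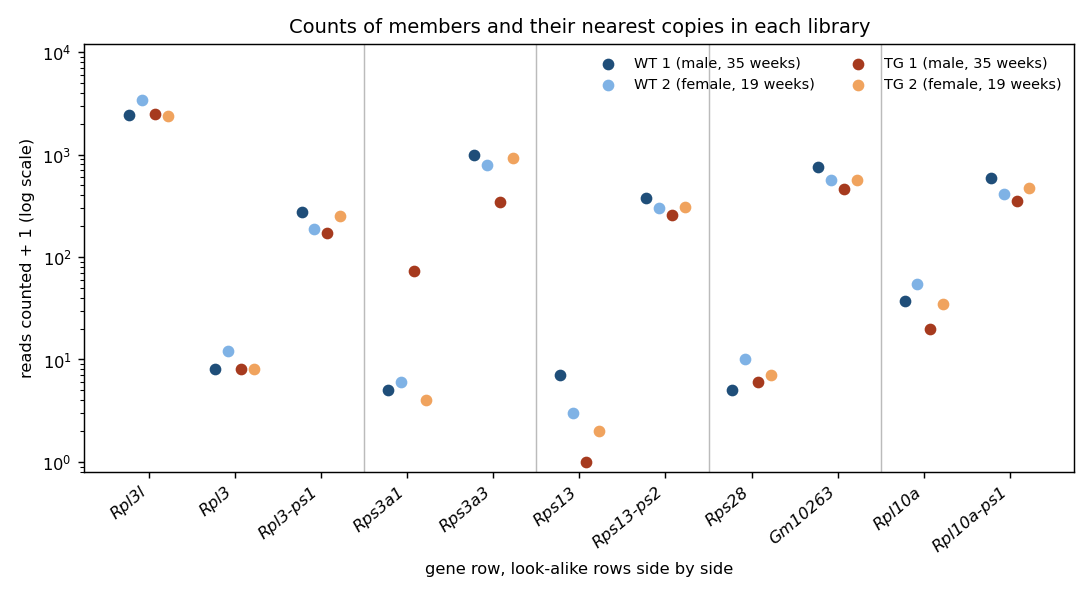
Reads counted per library plus 1 (log axis) for 5 members or paralogue sets and their most counted pseudogene copies, with 1 point per library. In every library Rpl3l, Rpl3-ps1, Rps13-ps2, Gm10263 and Rpl10a-ps1 lie above the gene beside them, and TG 1 stands apart with 72 counts for Rps3a1 and 346 for Rps3a3.

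A low-count filter, fixed on a minimum of 10 counts, passed 68 of the 87 members (43 of the large and 25 of the small subunit) among 14189 genes tested. Just above it stood Rpl34 with 7, 19, 8 and 11 counts in WT 1, WT 2, TG 1 and TG 2. Among the 19 not tested, Rpl3 (7, 11, 7 and 7), Rps6 (6, 8, 10 and 4), Rps28, Rpl26, Rps16, Rpl23a, Rpl35, Rps29, Rps13, Rps27, Rpl38, Rpl39l and Rpl29 had at most 11 counts in any library. Rps3a1 reached 72 counts in TG 1 alone. Rpl10l, Rps12l1, Rps12l2 and Rps3a2 had 0 counts in every library, which allows up to 3 counts, or 0.179 to 0.212 CPM of all counts (a limit for counting error only, since the labels name no molecular identifiers). Rps6, whose phosphorylation is the usual readout of mTOR activity, thus did not reach the filter, and 84.6% of its windows are shared with other genes.

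Rpl3l was the more counted of the Rpl3 pair in every library. Rpl3l (ENSMUSG00000002500, chr17:24727820-24736143, plus strand) had 2449 counts in WT 1, 3369 in WT 2, 2477 in TG 1 and 2365 in TG 2. Rpl3 (ENSMUSG00000060036, chr15:80077791-80091868, minus strand) had 7, 11, 7 and 7 counts in the same order. Rpl3l took 99.7% of the pair's counts in every library, with exact 95% binomial intervals between 99.4 and 99.9%. None of the 50-base windows of Rpl3l occur in another gene, against 85.6% of those of Rpl3, and Rpl3-ps1 held 277 counts in WT 1, 188 in WT 2, 169 in TG 1 and 249 in TG 2. With the pseudogene's counts added to Rpl3, the share of Rpl3l was 89.6% in WT 1, 94.4% in WT 2, 93.4% in TG 1 and 90.2% in TG 2, so Rpl3l held most of the counts under both ways of counting.

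Per kilobase, the log2 ratio of Rpl3l to Rpl3 was 9.40 in WT 1, 9.21 in WT 2, 9.42 in TG 1 and 9.35 in TG 2. These ratios rest on 7 to 11 counts of Rpl3 per library, so differences of this size cannot be told from counting error. They leave out the counts of Rpl3-ps1, with which the ratios would be lower. Division by length also credits Rpl3 with windows that other genes share, as 188 of its 50-base windows were its own, against 1326 for Rpl3l. Per such window the ratios would be lower too, so their size is not read as a ratio of expression. The TG mean exceeded the WT mean by 0.079, less than the gap between the WT libraries, and the exact two-sided permutation test gave p = 0.667. Rpl3l itself was at 149 CPM in WT 1, 216 in WT 2, 176 in TG 1 and 157 in TG 2, so WT 2 was the highest and the genotypes overlapped. Its log2 fold change of TG over WT was -0.13 ± 0.22 (SE), and it did not pass (edgeR quasi-likelihood test, Benjamini-Hochberg adjusted p = 1.00). Without WT 2 the value was 0.16, so no direction is read from it.

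The other paralogue pairs divided in different ways. Rps27l, a paralogue known as a p53 target, had 594, 523, 354 and 589 counts in WT 1, WT 2, TG 1 and TG 2, against 2, 3, 2 and 2 for Rps27, whose windows are shared with other genes at 98.6%. Rpl36al took 89.5 to 93.3% of the counts of its pair with Rpl36a, of which 85.5% of windows are shared, and 24.5% of the exonic bases of Rpl36al overlap the predicted gene Gm49383 on the same strand. In the pair Rpl7 and Rpl7l1 the shares were nearer to equal, with 41.4% of counts in Rpl7l1 in WT 1, 46.9% in WT 2, 41.3% in TG 1 and 45.3% in TG 2. Both males were lower than both females, but the exact intervals of all 4 libraries overlapped. Rpl22l1 took 7.83 to 9.04% of its pair with Rpl22, with overlapping exact intervals in all 4 libraries. Rps4l took 12.8% of its pair with Rps4x in WT 2 and 6.90 to 8.46% in the other 3. Rpl39l and Rpl10l, paralogues best known from testis, were near or at 0, with 0, 2, 4 and 0 counts for Rpl39l against 686, 519, 453 and 635 for Rpl39, and no count for Rpl10l against 37, 55, 38 and 27 for Rpl10.

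**Figure D3:**
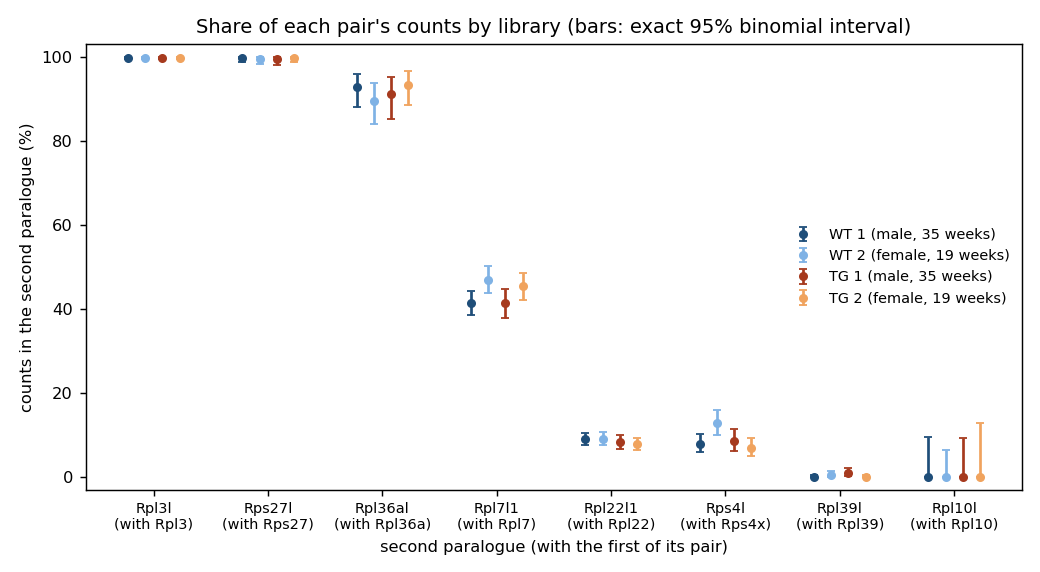
Percentage of each paralogue pair's counts that fell in the second paralogue, by library, with exact 95% binomial intervals that cover counting error only. Rpl3l and Rps27l lie above 99% in all 4 libraries, Rpl7l1 between 41.3 and 46.9%, and Rpl39l and Rpl10l at or near 0.

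Between TG and WT hearts none of the 68 tested members passed edgeR's quasi-likelihood test, and neither did any of the 14189 genes (percent called: 0). At an unadjusted p under 0.05 there were 0 members, against 0.698% of all genes, and DESeq2 and limma-voom also called 0 members. The members leaned to lower values in TG, at 57 of 68 against 52.5% of all genes, with a median log2 fold change of -0.092 against -0.011. That lean rested on TG 1: without it 37 of 68 were lower and the median was -0.008, and without WT 1 the count was 42. The male pair had a median log2 ratio of -0.27 and the female pair one of 0.066, so 21 members were lower in both pairs (18.6% of all genes were) and 3 were higher in both (16.7% of all genes were).

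In TG against WT, 15 members were lower in both TG libraries than in both WT libraries, 22.1% against 10.7% of all genes. They were Rpl11, Rpl12, Rpl13, Rpl19, Rpl21, Rpl22l1, Rpl27, Rpl28, Rpl5, Rps10, Rps14, Rps2, Rps25, Rps3 and the pseudogene Rps4l. Rpl5 and Rpl11, which with 5S RNA bind Mdm2 when ribosome assembly is disturbed, are both among them. Rpl11 was at 5.59 CPM in WT 1, 6.33 in WT 2, 4.34 in TG 1 and 4.78 in TG 2, and its log2 fold change was -0.39 ± 0.24. Rpl5 was at 6.99, 7.996, 6.12 and 6.77 CPM in that order, with a log2 fold change of -0.22 ± 0.22, and 93.8% of its windows are shared with other genes. For Rpl5 the gap between the closest WT and TG libraries was smaller than the gap between the WT libraries. Rpl13 had the smallest unadjusted p of all members (0.0983 by edgeR), at 36.1 and 35.0 CPM in WT 1 and WT 2 against 28.7 and 30.3 in TG 1 and TG 2, and its adjusted p was 1.00.

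Only Rpl15, Rps24 and Rps26 were higher in both TG libraries than in both WT libraries (4.41% of members against 10.3% of all genes), with log2 fold changes of 0.14 ± 0.15, 0.17 ± 0.17 and 0.15 ± 0.15. The lowest values that had the same sign in both pairs were those of Rpl28 (-0.98 ± 0.50), Rps2 (-0.81 ± 0.55), Rpl9 (-0.78 ± 0.50), Rpl30 (-0.69 ± 0.49) and Rpl19 (-0.67 ± 0.38). These were thinly counted rows, as Rpl28 had 15, 22, 7 and 10 counts and Rps2 had 21, 25, 7 and 17. With 1 library left out the value of Rps2 was -0.34 without TG 1 and -1.51 without TG 2, that of Rpl9 -0.20 without WT 2 and -0.45 without TG 1, and that of Rpl28 -0.64 without WT 2. Rpl30 had 44, 97, 34 and 46 counts, and without WT 2 its log2 fold change was 0.035. None of the 5 passed the test (edgeR adjusted p of 1.00 for each).

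A further comparison, chosen with earlier results of these data known, set TG 1 with WT 2 against TG 2 with WT 1. In a model whose only term was the difference between the TG to WT ratios of the male and the female pair, the coefficient is 2 times the fitted log2 difference, TG 1 with WT 2 minus TG 2 with WT 1, with 2 residual degrees of freedom. It called 386 of 14189 genes (2.72%) and 0 members, whose smallest adjusted p was 0.157 by edgeR. Unadjusted, 10 of 68 members had a p under 0.05 (14.7%, against 16.2% of all genes), 9 of them with a negative coefficient (8.77% of all genes). The members' median coefficient was -0.32 against 0.010 for all genes, and 46 of 68 were below 0 (49.1% of all genes were). Without TG 1 the median was -0.13 with 39 of 68 below 0, and without WT 1 it was -0.21 with 44.

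The stalk genes were highest in WT 1 and next highest in TG 2. Rplp0, which anchors the stalk to the large subunit, stood at 155 CPM in WT 1 and 147 in TG 2 against 124 in WT 2 and 123 in TG 1. Rplp1 was at 107.2 and 103.3 CPM against 78.6 and 82.9, and Rplp2 at 31.6 and 29.8 against 23.3 and 23.5 (WT 1 and TG 2 against WT 2 and TG 1). Rplp0 was lowest in TG 1, and Rplp1 and Rplp2 in WT 2. Their coefficients were -0.59 ± 0.21, -0.76 ± 0.21 and -0.78 ± 0.25 (SE), with adjusted p-values of 0.258, 0.157 and 0.209 by edgeR.

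Others with an unadjusted p under 0.05 and a negative coefficient included Rpl14 (-0.73 ± 0.22), Rpl39 (-0.72 ± 0.22), Rpl13a (-0.69 ± 0.22) and Rps21 (-0.77 ± 0.29). Rpl14 was at 49.3 CPM in TG 2 and 51.9 in WT 1, above the 40.1 of TG 1 and the 38.6 of WT 2. Rpl13a, known for silencing inflammatory mRNAs once it leaves the ribosome, was at 91.8 and 101.3 CPM in TG 2 and WT 1 and at 75.8 and 76.1 in TG 1 and WT 2, and 35.4% of its exonic bases overlap other genes on the same strand. Rpl3l was the exception with a positive coefficient, 0.71 ± 0.27 (adjusted p = 0.277 by edgeR), lower in TG 2 and WT 1 than in TG 1 and WT 2. The summed cardiomyocyte markers were also lower in those libraries, at 64567 and 62459 CPM against 80482 and 71188. By gene, 6 of the 8 had a positive coefficient and 2 a negative one, with a median of 0.15. The part of these markers in the value of Rpl3l was not tested.

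Counting libraries that did not overlap, 31 members were lower in TG 1 and WT 2 than in TG 2 and WT 1 (45.6%, against 24.6% of all genes). Another 6 were higher (8.82%, against 22.9% of all genes), namely Rpl10, Rpl36, Rpl36a, Rpl3l, Rps27a and Rps7. These 6 except Rpl3l had at most 55 counts in any library and 70.3 to 92.1% of their windows shared with other genes. Among the highest coefficients were those of Rpl10 (1.24 ± 0.59), Rps27a, which encodes a ubiquitin fusion (1.17 ± 0.63), and Rps7 (0.91 ± 0.71), and at the other end stood Rps23 (-2.08 ± 0.93, 19, 11, 5 and 16 counts), none of which passed the test. Scaling by total counts alone moved the median of all genes to -0.34 and that of the members to -0.68, and it left 0 members called.

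**Figure D4:**
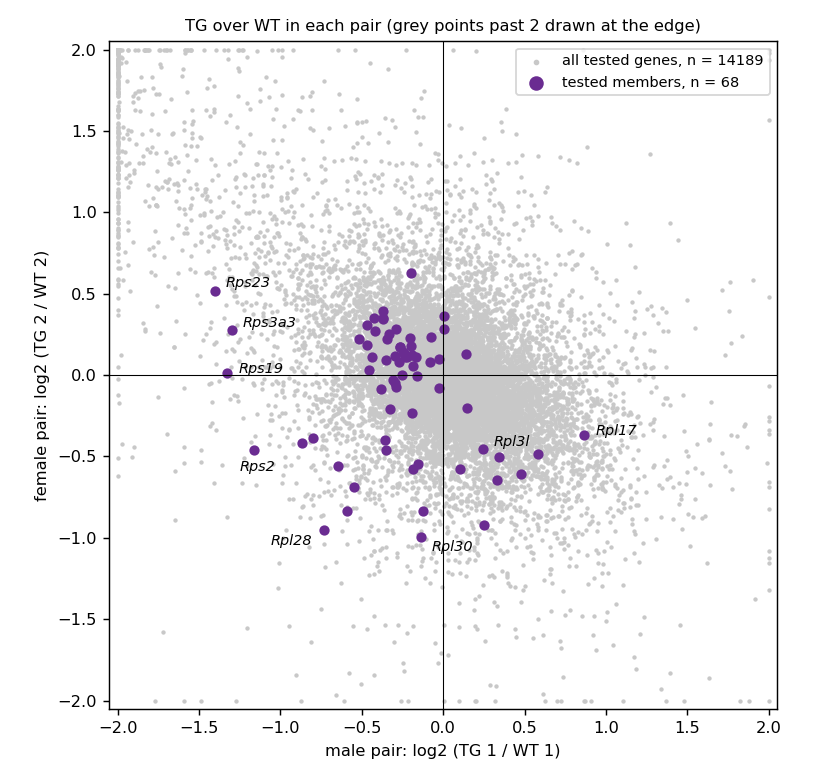
Log2 ratio of TG to WT in the female pair (vertical) against the male pair (horizontal) for the 68 tested members (purple) over all 14189 tested genes (grey, points past 2 drawn at the edge). Most members lie to the left of 0, at a median of -0.27, and near or above 0 on the vertical axis, at a median of 0.066, while Rpl3l lies at the lower right.

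Well and thinly counted members were described apart, by a split at a mean of 100 counts chosen after the values were seen. Of the 42 with more than 100 counts on average, 38 were highest in WT 1 or TG 2 (90.5%, against 44.2% of all genes so counted) and 40 were lowest in WT 2 or TG 1 (95.2%, against 51.2%). Their median pair difference was -0.39. Of the 26 with fewer, 18 were highest in WT 2 (69.2%, against 27.1% of all genes so counted), and the median was 0.42. By sequence, 9 of the 15 tested members with 75% or more of their windows shared were highest in WT 2, against 1 of the 11 with under 25%. WT 2 is also the library with the lowest protein-coding share, 89.9%, and the part of this in the thinly counted members was not tested.

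TG 1 was the lowest library for 41 of the 68 members (60.3%), against 27.0% of all genes, and the highest for 2. WT 1 was the highest for 28 (41.2%, against 28.1% of all genes), WT 2 for 22 (32.4% against 27.5%) and TG 2 for 16 (23.5% against 18.0%). The large and the small subunit had similar medians in TG against WT, -0.098 over 43 and -0.081 over 25 tested members. Members with a start-site pyrimidine run of at least 8 bases had a median of -0.11 over 25, and those with a shorter run -0.15 over 26. In the pair difference, 20 of those 25 were below 0, with a median of -0.34. Of the 26 with a shorter run 16 were below 0, with a median of -0.23. Of the 17 without a promoter window 10 were, with a median of -0.28. These differences were not tested.

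**Figure D5:**
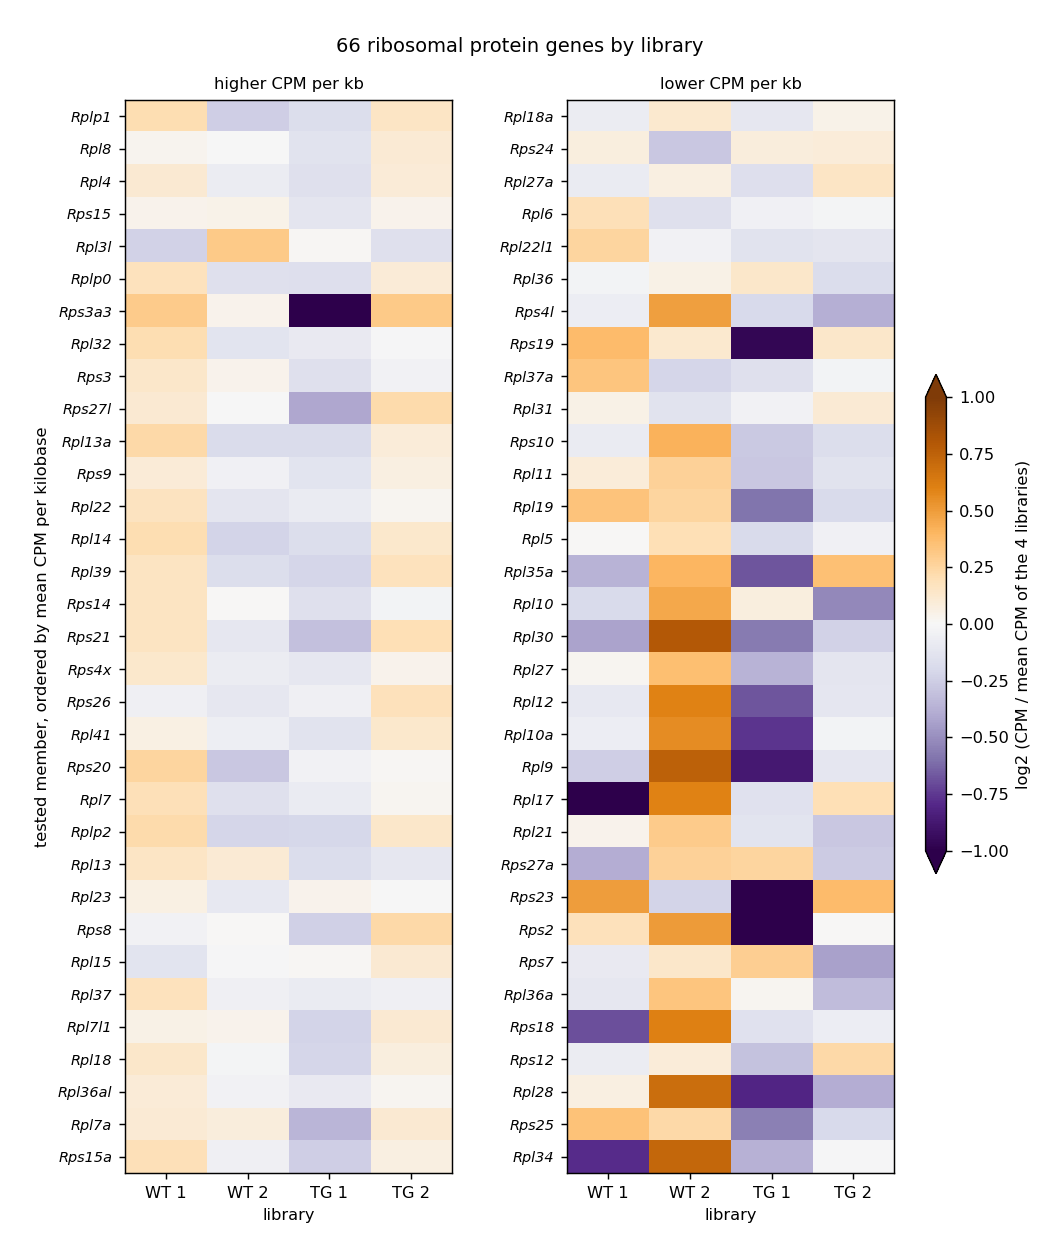
Log2 of CPM over its mean in the 4 libraries for 66 of the 68 tested members (2 are not shown), with members ordered by CPM per kilobase from the top left to the bottom right. The left panel is mostly above 0 in WT 1 and TG 2 and below 0 in TG 1, while many members in the lower right panel are highest in WT 2; Rps3a3 and Rps19 are far below their mean in TG 1.

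Some members stood apart in TG 1 alone. Rps19, of the small subunit and mutated in Diamond-Blackfan anaemia, had 267 counts in WT 1, 212 in WT 2, 90 in TG 1 and 206 in TG 2, or 16.2, 13.6, 6.402 and 13.7 CPM. TG 1 lay below the other 3, which were close to each other, and the log2 fold change of TG over WT was -0.57 ± 0.39. The processed copy Rps3a3 (chr13:108670603-108671397, plus strand) had 998, 787, 346 and 918 counts, and Rps3a1 (chr3:86137940-86142702, minus strand) had 4, 5, 72 and 3. Rps3a1 thus took 17.2% of the counts of both rows in TG 1 and 0.326 to 0.631% in the others. The sum of both rows was also lowest in TG 1, at 418 counts against 792 to 1002. In the pair difference Rps3a3 had a coefficient of -1.39 ± 0.62 (adjusted p = 0.350 by edgeR). Without TG 1 the coefficient was -0.54. Without WT 2 it was -2.61 and passed the test, the only member called in any comparison under any setting tried.

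Between the 35-week males and the 19-week females none of the 68 members passed edgeR's test, against 4 of all 14189 genes (0.0282%). One member, Rpl35a, had an unadjusted p under 0.05 (1.47%, against 3.62% of all genes and 1.77% with a lower value in males). Rpl35a, a large-subunit protein, stood at 3.49 CPM in TG 1 and 4.32 in WT 1, against 7.11 in TG 2 and 7.36 in WT 2. Both males were lower than both females, with a log2 fold change of -0.89 ± 0.23 and an adjusted p of 1.00. The median over the members was -0.083 against 0.010 for all genes, with 44 of 68 below 0 (48.1% of all genes were), and it was 0.041 without TG 1.

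In that comparison 12 members were lower in both males than in both females (17.6%, against 15.9% of all genes). Only Rpl23 was higher in both (1.47%, against 15.5%), at a log2 fold change of 0.095 ± 0.13. The lowest values with the same sign within both genotypes were those of Rpl17 (-0.99 ± 0.51), Rpl34 (-0.96 ± 0.50), Rpl9 (-0.90 ± 0.45), Rpl35a and Rpl30 (-0.86 ± 0.42). Apart from Rpl35a and Rpl30, each of these had at most 72 counts in any library, and without WT 2 the values of Rpl9 and Rpl30 were -0.40 and -0.26.

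Related genes outside the name pattern were compared on the same fits, and none was called in any of the 3 comparisons in the lists of ribosomal proteins, translation factors, biogenesis or mTOR. Gnb2l1, the scaffold protein of the small subunit also called RACK1, had 5019 counts in WT 1, 4174 in WT 2, 3443 in TG 1 and 4441 in TG 2, so it too was lowest in TG 1. The 15 translation factors and other genes with terminal pyrimidine tracts were lower in TG for 8, with a median of -0.004. Of these 15, 7 had a pair difference below 0, with a median of 0.008 and values from -0.84 to 0.88. The lowest was that of Eef1a1, the elongation factor that brings aminoacyl-tRNA to the ribosome, at -0.84 ± 0.24 (adjusted p = 0.164 by edgeR). Eef1a1 thus had the same sign as the stalk genes, but the list as a whole did not lean that way. Eef1a2, the muscle form of Eef1a1, was at 0.16 ± 0.28.

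Ribosome biogenesis genes were lower in TG for 21 of 35, with a median of -0.052, and mTOR genes for 6 of 15, with a median of 0.040. Those of smallest p were Dkc1 (0.26 ± 0.16) and Eif6 (-0.28 ± 0.19) in the first list and Larp1, which binds the pyrimidine tract (0.39 ± 0.20), and Mycn (-0.54 ± 0.30) in the second. In the pair difference their medians were 0.13 and 0.18, on the other side of 0 from the -0.32 of the members. Values ran from -0.61 to 1.36 in the first list, with 14 of 35 below 0, and from -1.69 to 1.65 in the second, with 5 of 15 below 0. The highest were those of Ncl, the nucleolar protein nucleolin (1.36 ± 0.47), and Eif4ebp2, a translation repressor under mTOR (1.65 ± 0.32). Their adjusted p-values were 0.236 and 0.0642 by edgeR, and the smallest of the first list was 0.154. The mitochondrial ribosomal proteins, which build a separate ribosome, were lower in TG for 57 of 76 tested genes, with a median of -0.076, close to the -0.092 of the cytosolic members. Their medians within the pairs were -0.13 in the males and -0.024 in the females, a narrower gap than the -0.27 and 0.066 of the cytosolic members, and this difference was not tested. The rows named as ribosomal protein pseudogenes (226, of which 21 were tested) had a median pair difference of -0.47 with 20 of 21 below 0, the direction of the well counted members.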

How the data were processed

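Total RNA of 4 mouse hearts was sequenced with a stranded kit, per the labels' protocols. The authors deposited raw read counts per gene and a normalized signal that equals those counts divided by 1 factor per library (0.917 to 1.08), which was compared with the counts only. The submitters' processing notes name STAR 2.3.0, HTSeq 0.6.1 and DESeq with the mm10 build, beside CASAVA 1.8.2 and FastQC 0.10.0. The sources used here give no strand setting or annotation release.

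Counts were tested in R 4.3.3 with edgeR 4.0.16 (filterByExpr with a minimum count of 10, TMM scaling, quasi-likelihood test without a block, Benjamini-Hochberg threshold of 0.05 over all 14189 tested genes). DESeq2 1.42.0, limma-voom (limma 3.58.1), other scalings, no filter and leaving out each library were alternatives. CPM use TMM-scaled sizes, and ratios within a pair a prior count of 2. Each SE was derived from edgeR's test, as the absolute fitted log2 fold change over the square root of its F statistic. Depth of 14158440 to 16762713 counts limits thinly counted members, and p-values measure only the spread among 4 mice, 2 of each genotype. Exonic lengths, biotypes and 50-base windows come from GENCODE vM21 (GRCm38), matched by identifier for all 87 members, and promoters from RefSeq GRCm38.p6. Scripts were tested on simulated data.

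Members, lists, the pair difference and the Rpl3l to Rpl3 ratio were chosen with earlier results of these data known. Named were the paralogue pairs, stalk genes, Rps6, Rps19, Rpl5, Rpl11, Rpl13a and Rps27a, called members, the 5 highest and 5 lowest values of each comparison with the same sign in both pairs (TG against WT) or within both genotypes (the other comparisons), the 5 highest per kilobase, members beside the filter, and of other lists called genes and the 2 of smallest p, a selection of which is printed. Members not overlapping between groups, members with an unadjusted p under 0.05, Rps13, Rps28, Rpl10a, Rps3a1 and Rps3a3 were named after their values were seen. Some genes that this rule names are not reported here.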

Additional observations from a re-analysis of the deposited data

How the results depend on the processing

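No member was called in any comparison by DESeq2, limma-voom, other scalings or no filter. With the replicate number as a block, TG against WT called 0 genes and 0 members, with a members' median of -0.088. The number marks sex and age only and gives 2 pairs, and same-numbered libraries deviated in opposite directions (correlation -0.45). The crossed pairing, added after this was seen, called 0 genes and 0 members.

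TG against WT called 3 genes by DESeq2 and 0 to 6 with 1 library left out. The members' median was -0.225 to -0.0076 with 1 library left out, lowest without TG 2. Males against females called 34 genes by DESeq2, 7 without a filter, 0 with genotype as a term and 0 to 7 with 1 library left out. The pair difference called 703 genes by DESeq2, 908 without a filter and 40 to 347 with 1 library left out (40 without WT 1, 109 without TG 2). With 1 library left out it called 0 or 1 member (Rps3a3 without WT 2, -2.61), a members' median of -0.438 to -0.134, and total-count scaling a median of -0.679. With 1 library left out, TG over WT was -1.18 to 0.035 for Rpl30 and -0.371 to 0.164 for Rpl3l, and males over females -0.407 to 0.047 for Rpl3l, each positive only without WT 2. The TG minus WT difference of the log2 Rpl3l to Rpl3 ratio was -0.017 to 0.175 with 1 library left out, negative without WT 2. The difference of the members' percent of counts, -0.012, was -0.045 to 0.021, positive without WT 1 (0.019) and without TG 1 (0.021). The causes were not tested. In fits that leave a genotype with 1 library, that library is assumed to vary like the others.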
